A study of Rattus norvegicus with 9 samples.

Results

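Endothelial marker genes were examined in the kidneys of 9 rats, 4 labelled case and 5 labelled control, in a series titled as a study of gene expression in hypotension. The genes were Esam, Egfl7, Pecam1, Kdr, Flt1, Tek, Tie1, Cdh5, Vwf and Eng, a list of known markers drawn up with earlier results of these data known. No measured value entered the rule that took their probe sets. Every probe set whose single platform symbol was one of these names was taken, and each was kept apart. Of 15923 probe sets on the array, 11 met this rule, covering 8 of the 10 genes. No probe set of the annotation used here carried the symbol or Entrez ID of Tek or Cdh5, and these genes were not analysed here.

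Endothelial cells line every renal vessel, from the arterioles and the fenestrated glomerular capillaries to the peritubular capillaries that surround the tubules. They are held together at junctions by adhesion proteins such as PECAM1, ESAM and the cadherin encoded by Cdh5. They depend on vascular endothelial growth factor (VEGF), which podocytes and tubule cells make and which binds the receptors encoded by Kdr and Flt1. The angiopoietin receptor encoded by Tek and its relative encoded by Tie1 steady resting vessels, and endoglin, encoded by Eng, is a co-receptor for ligands of the transforming growth factor family. Von Willebrand factor, encoded by Vwf, is stored in endothelial granules and released for clotting.

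Total RNA from whole kidney was hybridised to 1 array per animal. The labels give the animals only as case or control and by number, so strain, sex, age, treatment and timing are not stated here, nor is anything that both groups shared. The array was an Affymetrix RAE230A chip, which reads each transcript with several short probes, combined into 1 signal per probe set. Signals were deposited on a linear scale already scaled between arrays, with a median per array from 45.2 to 55.6. Kidney tubule markers were bright on every array, with Umod from 3706 to 5699 and Slc34a1 (1368680_a_at) from 2578 to 4495. None of the 3 adrenal cortex and 2 adipose tissue markers measured passed the filter on low signal described below. Start times at least 10 minutes apart were taken to separate fluidics runs, which gave 3 runs. Control animal 4 shared run 1 with case animals 3, 5 and 7, case animal 8 shared run 2 with control animals 9, 10 and 11, and control animal 12 was alone in run 3. RNA shortening was read from the ratio of the 3' to the 5' beta-actin control probe set, whose log2 value was 1.61 and 1.63 in case animals 7 and 8 and between 0.161 and 0.998 in the other 7 animals. The same ratio of the GAPDH control probe sets was 1.06, 0.631, 1.26 and 0.95 in case animals 3, 5, 7 and 8. In the controls it lay between 0.639 and 0.839, so case animal 3 stood above them too. Only the actin ratio was used in a fit.

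The sequence just upstream of a transcript start is shown for Egfl7, which had a probe set among those with the largest differences below, for Eng, whose signal went with that of Egfl7 across animals, and for Kdr, which lay higher in case. The windows are the 250 bases before each start in RefSeq's table for the GRCr8 rat assembly, which held 6 such windows for 5 of the genes, with 2 starts for Egfl7. A start in that table need not be the outermost one of the gene: both Egfl7 windows lie inside the annotated gene, and those of Eng and Kdr run into its first bases. Capitals mark GGAA on either strand, the core bound by ETS transcription factors, a family that drives many endothelial genes.
Egfl7, chr3:29805381-29805630, plus strand: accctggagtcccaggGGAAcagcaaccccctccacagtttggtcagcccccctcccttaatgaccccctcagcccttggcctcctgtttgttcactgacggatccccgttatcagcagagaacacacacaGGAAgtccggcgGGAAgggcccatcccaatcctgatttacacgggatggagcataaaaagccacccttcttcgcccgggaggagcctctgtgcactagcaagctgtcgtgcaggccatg
Egfl7, chr3:29808051-29808300, plus strand: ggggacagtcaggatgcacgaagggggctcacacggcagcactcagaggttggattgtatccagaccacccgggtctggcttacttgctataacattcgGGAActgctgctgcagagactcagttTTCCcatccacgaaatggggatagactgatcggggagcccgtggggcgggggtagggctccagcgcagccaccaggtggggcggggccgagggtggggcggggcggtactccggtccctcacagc
Kdr, chr14:32571813-32572062, plus strand: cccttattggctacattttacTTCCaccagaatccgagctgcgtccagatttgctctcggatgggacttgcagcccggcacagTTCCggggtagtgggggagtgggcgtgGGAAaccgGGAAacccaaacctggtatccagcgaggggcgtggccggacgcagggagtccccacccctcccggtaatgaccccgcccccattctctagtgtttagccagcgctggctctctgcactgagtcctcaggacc
Eng, chr3:36332029-36332278, plus strand: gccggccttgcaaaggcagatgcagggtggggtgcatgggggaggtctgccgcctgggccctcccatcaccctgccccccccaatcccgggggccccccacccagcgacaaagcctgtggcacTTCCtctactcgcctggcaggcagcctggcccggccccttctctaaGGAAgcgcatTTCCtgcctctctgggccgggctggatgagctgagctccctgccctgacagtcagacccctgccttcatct

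All 6 windows, including those of Flt1 and Tie1, held GGAA on 1 or the other strand, but so did 93.2% of the 33469 windows of this length in the table, with a median of 3 matches both here and in the table. The TATA box letters TATAAA were found in 1 of the 6 windows, that of Flt1, against 12.9% of all windows. The GC box letters GGGCGG were found in 4 of 6 windows, against 30.5%. The GATA letters AGATAA were found in 0 of 6, against 10.3%, and CCGGAA, which contains the ETS core, in 1 of 6, that of Kdr, against 12.6%. Both strands were searched for each. Median GC content was 62.8% over the 6 windows and 51.2% over all windows. These matches describe letters only.

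Egfl7 is also the host of the miR-126 locus, a microRNA known for its abundance in endothelium. The RefSeq coordinates place 3 mature miRNAs within the gene, at chr3:29813177-29813198 on the minus strand for rno-miR-126b and at chr3:29813182-29813202 and chr3:29813219-29813240 on the plus strand for the other two. They are shown because a difference at the host gene says nothing of them by itself, and the array values used here do not measure them. Capitals mark the seed, bases 2 to 8, which the 3 do not share.
rno-miR-126a-3p: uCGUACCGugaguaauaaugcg
rno-miR-126a-5p: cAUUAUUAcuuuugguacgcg
rno-miR-126b: uACCAAAAguaauaaugugcug

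The comparison asked whether endothelial transcripts differed between case and control kidneys. Esam, and Egfl7 at 1 of its 2 probe sets, lay lowest in case relative to control, at 0.715 and 0.732 of the control level. Kdr and Pecam1 lay on the other side, at 1.14 and 1.09 of the control level. None of these differences passed the test. All differences are case minus control on the scale log2(signal + 5.03), where the constant understates the change of dim genes. Probe sets were tested when their mean log2 value lay above the 40th percentile of all probe sets, near a signal of 33.3. Of the 11 probe sets, 9 passed this filter, at least 1 for each of the 8 genes, and 2 of the 3 Flt1 probe sets did not. By limma with Benjamini-Hochberg adjustment over 9519 probe sets, 0 of the 9 had an adjusted p under 0.05, and so did 0% of all those tested. Adjusted p lay between 0.644 and 0.998 for the 9. At an unadjusted p under 0.05, 2 of the 9 were lower in case (22.2%, against 3.81% of all tested) and 0 were higher (against 2.88%). The marker list was drawn up with earlier results of these data known, so the 22.2% is a description and not a test. In no tested marker probe set were the case and control signals free of overlap, against 1.88% of all tested. The median difference of the 9 was -0.22, and that of all tested was -0.02. Single animals moved the former, to -0.08 without control animal 4 and to -0.10 without case animal 7. Of the 9, 6 lay below 0 (66.7%), as did 54.0% of all tested. In whole-kidney RNA, a change in endothelial cell number and a change in RNA per cell cannot be told apart.

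**Figure D1:**
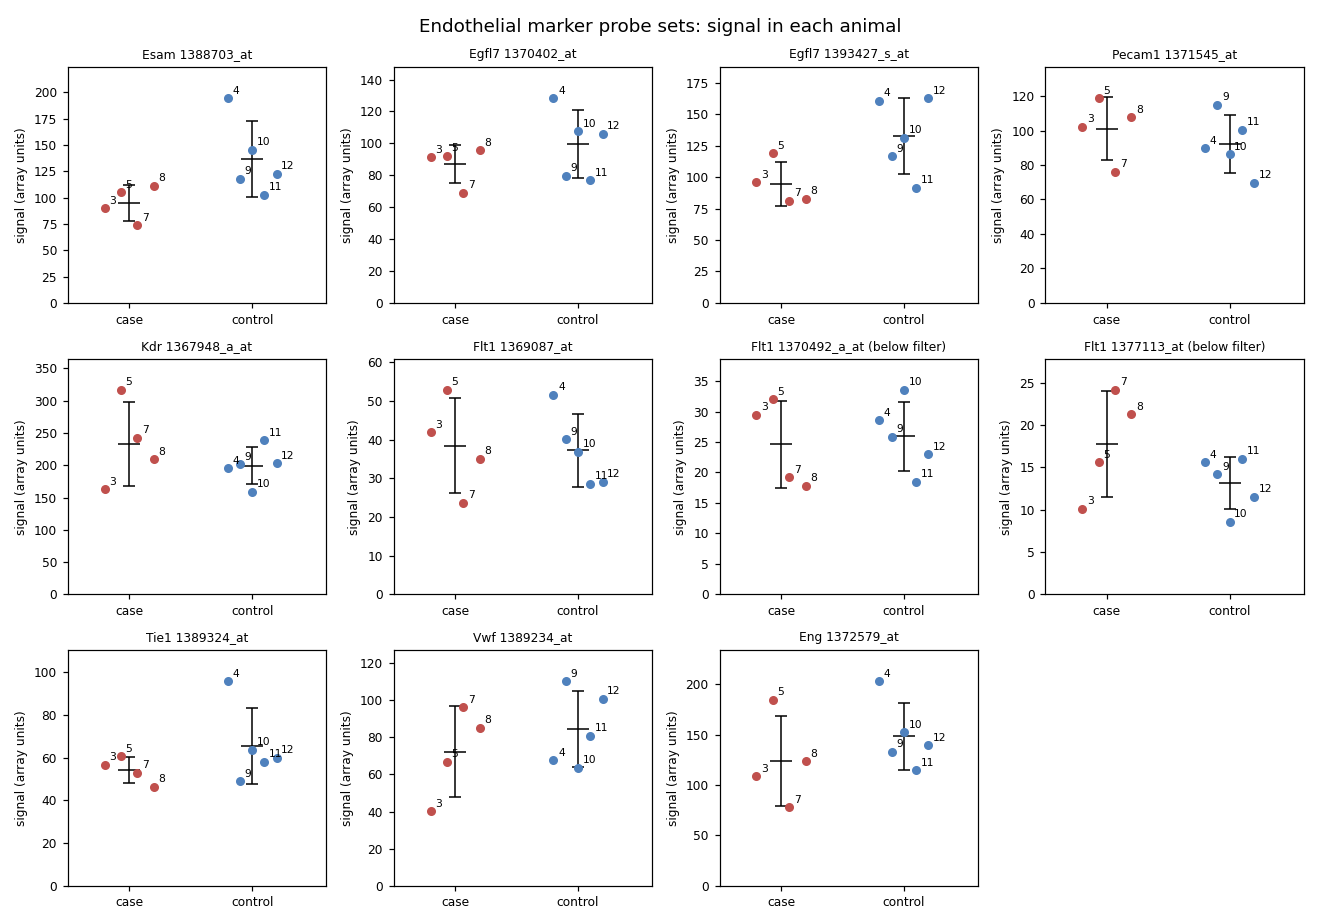
Signal of each of the 11 endothelial marker probe sets (y axis, array units, starting at 0) in 4 case and 5 control animals, with animal numbers beside the points and bars for the mean ± SD. The groups overlap in every panel, and control animal 4 is highest for Esam, Tie1, Eng and Egfl7 1370402_at.

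Esam encodes an immunoglobulin-type adhesion protein of endothelial junctions that platelets also carry. Its signal (1388703_at) was 89.7, 105, 73.8 and 111 in case animals 3, 5, 7 and 8, and 195, 118, 146, 103 and 122 in control animals 4, 9, 10, 11 and 12. All 4 case animals lay below the control median, but case animals 5 and 8 lay above control animal 11, so the groups overlapped. The case mean was 94.98 ± 16.8 (SD, n = 4), and the control mean was 137 ± 35.9 (SD, n = 5). The log2 difference was -0.48 ± 0.19 (SE; 95% interval -0.89 to -0.08), with limma unadjusted p = 0.0217 and adjusted p = 0.644. Within run 1 the difference was -1.09, set by control animal 4 alone on the control side, and within run 2 it was -0.11. With the run as a block it was -0.60 (95% interval -1.13 to -0.07). With the actin ratio as a covariate it was -0.41 (95% interval -0.86 to 0.04).

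Egfl7 encodes a protein that endothelial cells secrete into their surrounding matrix. At 1393427_s_at, a suffix that marks probes shared by more than 1 transcript, the signal was 96.0, 119, 81 and 82.9 in case animals 3, 5, 7 and 8. In control animals 4, 9, 10, 11 and 12 it was 161, 117, 131, 91.3 and 163. Control animal 11 lay among the case animals, and the other 4 controls lay above 3 of the 4 case animals. The means were 94.7 ± 17.5 (SD, n = 4) and 133 ± 30.3 (SD, n = 5), and the log2 difference was -0.45 ± 0.18 (SE; limma unadjusted p = 0.0283, adjusted p = 0.671). Within run 1 it was -0.69, set by control animal 4 alone on the control side. Within run 2 it was -0.41, set by case animal 8 alone on the case side. With the run as a block it was -0.55 (95% interval -0.99 to -0.11). With the actin ratio as a covariate it was -0.35 (95% interval -0.77 to 0.08).

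At the other Egfl7 probe set, 1370402_at, the signal was 91.3, 92.0, 69.1 and 95.7 in case and 128, 79.7, 108, 76.9 and 106 in control, in the same order of animals. Here control animals 9 and 11 lay below 3 of the 4 case animals. The difference was -0.17 ± 0.17 (SE; limma adjusted p = 0.909), and it was -0.59 within run 1 but 0.13 within run 2. Without case animal 7 it was -0.07, and without control animal 4 it was -0.08. The 2 probe sets of the gene thus gave differences of the same sign but unlike size, and the test between them was not run.

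**Figure D2:**
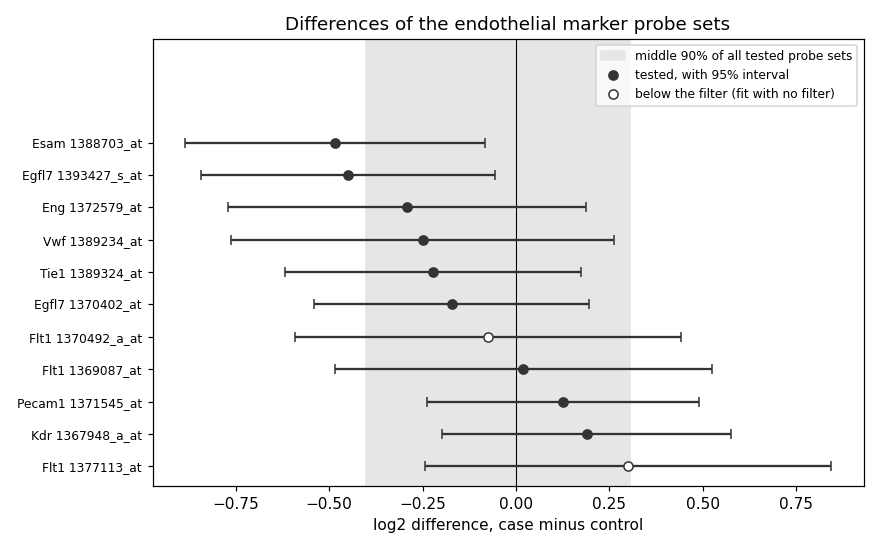
Log2 difference, case minus control (x axis), of each endothelial marker probe set with its 95% interval. Filled points were tested and open points, both of Flt1, lay below the filter. The grey band holds the middle 90% of all 9519 tested probe sets, from -0.40 to 0.31. The intervals of Esam and of Egfl7 1393427_s_at lie below 0 and all others include 0.

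Eng, the co-receptor for growth factors of the transforming growth factor and bone morphogenetic protein families, gave signals of 109, 185, 77.9 and 124 in case animals 3, 5, 7 and 8. In control animals 4, 9, 10, 11 and 12 the signals were 203, 133, 152, 115 and 140. Case animal 5 was second only to control animal 4, and case animals 3 and 7 lay below every control. The difference was -0.29 ± 0.22 (SE; limma adjusted p = 0.862). It was -0.78 within run 1, -0.09 within run 2, and -0.12 with the actin ratio as a covariate. Single animals moved it both ways, to -0.10 without case animal 7 and to -0.50 without case animal 5 (limma unadjusted p = 0.0257).

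Tie1, the orphan receptor kinase that pairs with the angiopoietin receptor, gave 56.6, 60.6, 52.8 and 46.3 in case and 95.7, 48.9, 63.5, 58.1 and 60 in control, with animals in the same order. Control animal 4 stood above the other 8 animals, which lay between 46.3 and 63.5 with both groups mixed. The difference was -0.22 ± 0.18 (SE; limma adjusted p = 0.882), and -0.08 without control animal 4. Within run 1 it was -0.71, set by control animal 4 alone on the control side. Within run 2 it was -0.26, set by case animal 8 alone on the case side. With the run as a block, which draws on the same single animals, it was -0.49 (95% interval -0.91 to -0.06; limma unadjusted p = 0.0283, adjusted p = 0.620).

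The VEGF receptors lay at or above 0 at their tested probe sets. Kdr, which encodes the main signalling receptor for VEGF-A, gave 163, 317, 242 and 209 in case animals 3, 5, 7 and 8, and 195, 202, 159, 238 and 203 in control animals 4, 9, 10, 11 and 12. Case animal 5 was highest, case animal 3 was next to lowest, and case animals 5 and 7 lay above every control. The means were 233 ± 64.9 (SD, n = 4) and 199.5 ± 28.2 (SD, n = 5), with a difference of 0.19 ± 0.18 (SE; 95% interval -0.20 to 0.58; limma adjusted p = 0.902). Without case animal 5 the difference was 0.03.

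Flt1 encodes a receptor that binds VEGF-A and placental growth factor and that also exists as a soluble form which holds VEGF-A away from its other receptor. Its 1 tested probe set, 1369087_at, was near the filter, with 41.9, 52.9, 23.7 and 35 in case and 51.6, 40.1, 36.8, 28.6 and 29.1 in control. Both extremes were case animals, 5 at the top and 7 at the bottom. The difference was 0.02 ± 0.23 (SE; limma adjusted p = 0.998), and its sign turned to -0.20 with the run as a block. The 2 probe sets below the filter were dimmer still. Signals at 1370492_a_at lay between 17.8 and 33.6 over all 9 animals, with a difference of -0.07 ± 0.24 (SE) in the fit with no filter, and those at 1377113_at between 8.6 and 24.2, with 0.30 ± 0.25 (SE). The 3 Flt1 probe sets thus gave values on both sides of 0.

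Pecam1, the junction protein CD31 that platelets and leukocytes carry as well, gave 102, 119, 75.9 and 108 in case and 89.6, 115, 86.3, 101 and 69.7 in control. Case animals 3, 5 and 8 lay above at least 4 of the 5 controls, and case animal 7 below all but control animal 12. The difference was 0.13 ± 0.17 (SE; 95% interval -0.24 to 0.49; limma adjusted p = 0.930). It was 0.04 without control animal 12, 0.05 without case animal 5 and 0.25 without case animal 7.

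Vwf, which megakaryocytes and platelets contain too, spread most widely of the tested markers, with an SD within groups of 0.42 on the log2 scale, where the 9 ranged from 0.26 upward and the median over all tested was 0.25. Its signal was 40.1, 66.9, 96.2 and 85.2 in case and 67.6, 110, 63.5, 80.8 and 101 in control. Case animal 3 was lowest, and case animals 7 and 8 lay above 3 of the 5 controls. The difference of -0.25 ± 0.24 (SE; limma adjusted p = 0.902) was -0.01 without case animal 3 and -0.02 with the run as a block. With the actin ratio as a covariate it was -0.55 (95% interval -0.96 to -0.14; limma unadjusted p = 0.0122). In that fit Vwf was the 1 marker probe set with an unadjusted p under 0.05 (against 4.69% of all tested), in place of Esam and Egfl7. The platelet markers Pf4 and Itga2b, both tested, differed by 0.11 ± 0.22 and -0.01 ± 0.17 (SE). The third measured, Ppbp, lay below the filter and was lower in the fit with no filter, by -0.55 ± 0.21 (SE; limma unadjusted p = 0.0206, adjusted p = 0.731). Its case and control signals did not overlap, as with Hhex and Cspg4 below, also under the filter. The share without overlap was 1.88% of all tested probe sets. No such share was computed for probe sets below the filter, so the 1.88% is no measure for these 3. The part of platelets in Vwf was not tested.

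The animals with extreme values were few. Control animal 4 had the highest signal for 4 of the 9 tested probe sets and a median deviation of 0.45 on the log2 scale from each probe set's mean over the 9 animals. Case animal 7 had the lowest signal for 5 of the 9, with a median deviation of -0.40. Case animal 5, in the same run as both, was highest for 3 of the 9, namely Kdr, Flt1 and Pecam1, and its median deviation was 0.08. Control animal 11, with -0.15, lay on the side of case animal 3, with -0.22. Leaving out case animal 7 or control animal 4 took the count at an unadjusted p under 0.05 from 2 to 0, and Esam then differed by -0.38 and -0.35. The share of all tested probe sets at that threshold was 5.21% and 6.72% in those fits, against 6.69% with all 9 animals. With both animals left out, a choice made after their values had been seen, the median difference of the 9 was 0.01 and Esam differed by -0.24. Without case animals 7 and 8, which had the highest actin ratios, Esam differed by -0.44 and Egfl7 1393427_s_at by -0.27. In that fit 1 marker of 9, Vwf, had an unadjusted p under 0.05 (against 2.99% of all tested).

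**Figure D3:**
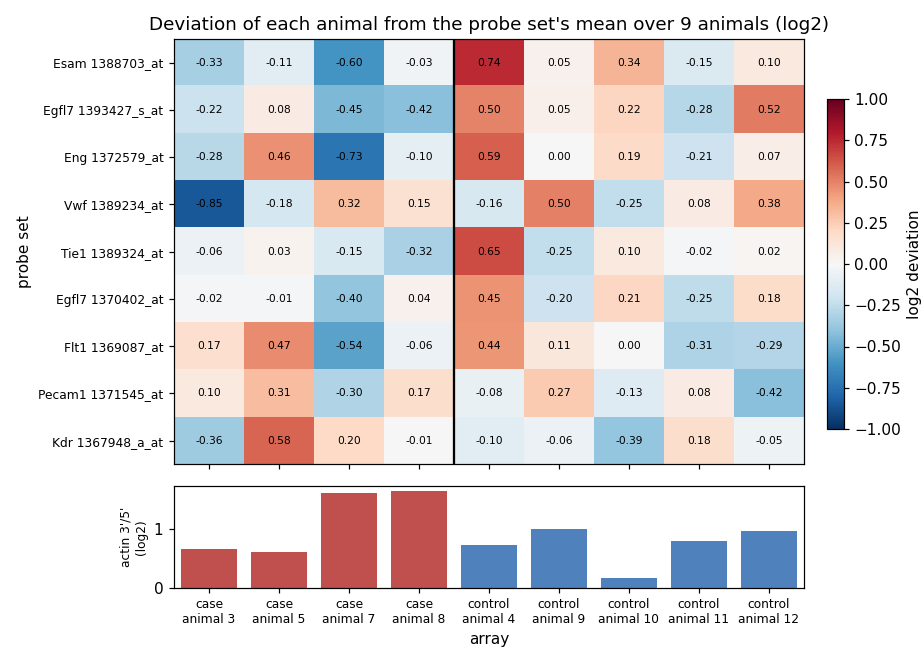
Deviation of each animal (columns) from the mean over 9 animals for the 9 tested probe sets (rows, log2 scale, colour from -1 to 1), with the log2 actin 3'/5' ratio of each array as bars from 0 (red case, blue control). The column of control animal 4 is high for Esam, Tie1, Eng and both Egfl7 probe sets, and that of case animal 7 is low for them.

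**Figure D4:**
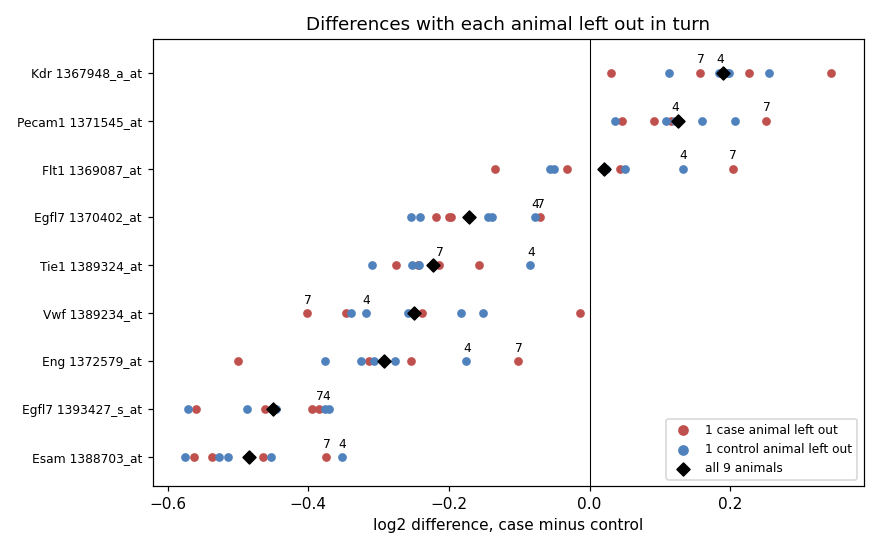
Log2 difference, case minus control (x axis), of the 9 tested probe sets with all 9 animals (diamonds) and with 1 animal left out (circles, red for a case animal and blue for a control). The numbers 4 and 7 mark values without control animal 4 and case animal 7. Esam and Egfl7 1393427_s_at stay below 0 throughout, with Esam between -0.58 and -0.35.

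Signals of Esam, Egfl7, Eng and Tie1 went together over the animals, with r from 0.65 to 0.86 between their probe sets. Flt1 went with Eng at r = 0.805 (exact permutation p = 0.00917, adjusted 0.0826) and rho = 0.65 (exact permutation p = 0.0666, adjusted 0.266). Without case animals 5 and 7 that r was 0.57. With Esam, Tie1 and the Egfl7 probe sets Flt1 gave r from 0.43 to 0.57. The grouping was made from these same values. All are pairs of values from the same 9 arrays, which share scaling, RNA quality and run. Of 36 pairs of tested probe sets, 0 passed a 2-sided exact permutation test after adjustment over the 36. The highest was Esam with Egfl7 1370402_at, at Pearson r = 0.86 (exact permutation p = 0.00307, adjusted 0.0826) and Spearman rho = 0.87 (exact permutation p = 0.00451, adjusted 0.0996). Without case animal 7 and control animal 4, the 2 animals farthest from the median of Esam, r fell to 0.54. Esam with Eng gave r = 0.84 (exact permutation p = 0.00715, adjusted 0.0826) and rho = 0.83 (exact permutation p = 0.00827, adjusted 0.0996), and r = 0.46 without the same 2 animals. Esam with Tie1 gave r = 0.73 (exact permutation p = 0.0378, adjusted 0.136) and rho = 0.55 (exact permutation p = 0.133, adjusted 0.379). Without the same 2 animals that r was 0.21. Leaving out the animals with extreme Esam values narrows the range over which r is taken. With group means subtracted and all 9 animals kept, r was 0.90 for Esam with Egfl7 1370402_at, 0.84 with Eng and 0.66 with Tie1. The 2 Egfl7 probe sets, which measure 1 gene, gave r = 0.77 (exact permutation p = 0.0163, adjusted 0.0840) and rho = 0.77 (exact permutation p = 0.0214, adjusted 0.128), and r = 0.55 without case animal 7 and control animal 4. With each run holding at most 4 arrays, no correlation within a run was computed.

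Kdr with Esam gave r = -0.34 (exact permutation p = 0.368, adjusted 0.630) and rho = -0.53 (exact permutation p = 0.148, adjusted 0.379), and r = -0.28 without control animal 4 and case animal 7. Pecam1 with Esam gave r = -0.05 (exact permutation p = 0.907, adjusted 0.970) and rho = -0.17 (exact permutation p = 0.678, adjusted 0.763), and r = -0.47 without those 2 animals. With group means subtracted and all 9 animals kept, r with Esam was -0.17 for Kdr and 0.18 for Pecam1.

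**Figure D5:**
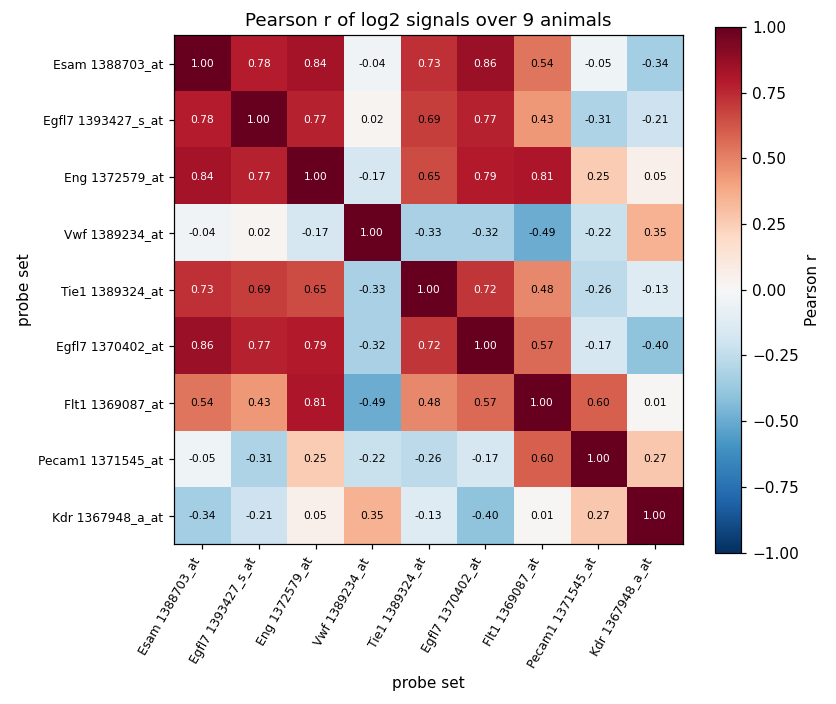
Pearson r over 9 animals between the log2 signals of the 9 tested probe sets (rows and columns in the order of their case minus control difference; colour from -1 to 1). Esam, Eng, Tie1 and both Egfl7 probe sets are positive with each other, from 0.65 to 0.86, and Kdr, Pecam1 and Vwf are near or below 0 with Esam. Flt1 is positive with Esam, Eng, Tie1 and Egfl7 too, from 0.43 with Egfl7 1393427_s_at to 0.805 with Eng.

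Ranked by r with Esam among 9518 other probe sets, Egfl7 1370402_at stood at place 83, Eng at 145, Egfl7 1393427_s_at at 318 and Tie1 at 589. Flt1 stood at 1797, Vwf at 5413, Pecam1 at 5448 and Kdr at 6987. Across 7139 other genes, each by its brightest tested probe set, the 5 closest to the mean of the 8 marker genes over 9 animals were RT1-N2, Bace1, Rab1b, Ing4 and Olfml3, with r from 0.93 to 0.94. RT1-N2 belongs to the class I histocompatibility family, whose members are alike enough to share probes. The values of these 5 were, like those of Esam, highest or next to highest in control animal 4 and lowest in case animal 7. Rab1b, a small GTPase of vesicle traffic, had signals of 170 and 75.2 in those 2 animals and 82.2 to 143 in the other 7.

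Among partners of the VEGF receptors, 0 of 4 genes tested had an adjusted p under 0.05 in either direction, and their median difference was -0.13. Vegfa, the main ligand of Kdr, differed by 0.02 ± 0.12 (SE) at its brighter probe set and by -0.47 ± 0.28 at 1370081_a_at. Vegfb differed by -0.12 ± 0.14, Vegfc by -0.26 ± 0.19, and Nrp1, a co-receptor, by -0.14 ± 0.17 at its brighter probe set and -0.30 ± 0.19 at the other. Vegfd, Pgf, Flt4 and Nrp2 lay below the filter. Of the Tek partners listed, Ptprb, a phosphatase that acts on the receptor, differed by 0.33 ± 0.21 (SE), and Angpt2, a ligand, lay below the filter with signals of 16.2 to 36.6. In the fit with no filter Angpt2 differed by -0.51 ± 0.225 (SE; limma unadjusted p = 0.0438, adjusted p = 0.788), and its groups overlapped.

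The list around Eng held 9 tested genes, each counted by its brightest probe set, with a median of -0.01. Of these 0 passed after adjustment, and 1 was lower and 0 were higher at an unadjusted p under 0.05 (against 3.81% and 2.88% of all tested probe sets). Smad6, an inhibitor of bone morphogenetic protein signalling, was the lower one at 1375121_at, by -1.09 ± 0.39 (SE; limma adjusted p = 0.644), with a case mean of 28.2 ± 17.8 (SD, n = 4) against 60.4 ± 26.9 (SD, n = 5). Its other probe set lay below the filter and differed by 0.32 ± 0.40. Tgfbr1, a type I receptor, differed by -0.01 ± 0.15 at its brighter probe set. At the dimmer one, not in the count, it differed by -0.46 ± 0.21 (limma unadjusted p = 0.0499, adjusted p = 0.7465). Acvrl1, the receptor that endoglin assists in endothelium, differed by 0.06 ± 0.21. Among genes induced by that signal, Id1 differed by 0.12 ± 0.19, Id2 by -0.37 ± 0.24 at its brighter probe set and -0.02 ± 0.17 at the other, and Id3 by -0.43 ± 0.22, and Smad7, an inhibitor, by -0.32 ± 0.18. Smad1 and Smad5, which carry the signal, differed by 0.01 ± 0.17 and 0.08 ± 0.12 at their brightest probe sets. Bmpr2 and Tgfb1 lay below the filter.

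In 5 further endothelial lists, 0 genes passed the adjusted threshold, and their counts at an unadjusted p under 0.05 stand against the same 3.81% lower and 2.88% higher of all tested. Other junction and surface markers had a median of -0.06 over 16 genes, 9 below 0 and 7 above, with 0 at an unadjusted p under 0.05 by their brightest probe sets. Podxl, which podocytes express strongly as well, was lower at 1 dimmer probe set, 1387933_s_at, by -0.60 ± 0.25 (SE; limma adjusted p = 0.691). Endothelial transcription factors had a median of -0.10 over 8 genes. Epas1, the hypoxia-responsive factor HIF-2 alpha, was the 1 tested gene at an unadjusted p under 0.05, on the higher side. It differed by 0.37 ± 0.13 at 1398333_at (limma adjusted p = 0.644), while its other probe set differed by -0.09 ± 0.30. Hhex lay below the filter and was lower in the fit with no filter, by -0.56 ± 0.20 (SE; limma unadjusted p = 0.0173, adjusted p = 0.720). Its case and control signals did not overlap (1.88% of all tested, with no share computed below the filter). Arterial and Notch genes had a median of -0.14 over 6 genes, with Jag1, a Notch ligand, lower by 0.54 on the log2 scale (difference -0.54 ± 0.23; limma adjusted p = 0.711). Notch4 differed by -0.18 ± 0.22 at its brighter probe set. Its other probe set, 1389847_at, lay below the filter with signals of 1.5 to 14.2. In the fit with no filter it was higher, by 0.64 ± 0.24 (SE; limma unadjusted p = 0.0214, adjusted p = 0.731). Lymphatic genes had -0.20 over 3 genes and activation markers -0.01 over 2.

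Markers of other cell types were read beside these. For smooth muscle, pericytes and mesangium, 6 of the 10 listed genes were tested, all 6 lay below 0 (against 54.0% of all tested) with a median of -0.32, 0 passed after adjustment, and 2 were lower at an unadjusted p under 0.05 (against 3.81%). These were Myh11, smooth muscle myosin, by -0.43 ± 0.14 (SE; limma adjusted p = 0.644), and Rgs5, a pericyte gene, by -0.38 ± 0.18 (limma adjusted p = 0.746). The summed signal of the 10 lay between 316 and 400.0 in case and between 404 and 437.5 in control, with no marker at 0 on any array. The groups' sums thus did not overlap but came close. No share of such sums over other genes was computed, and the 1.88% of single tested probe sets without overlap is no measure for a sum. Taken singly, each of the 6 tested genes overlapped between the groups. Of the 4 genes below the filter, Cnn1 differed by 0.55 ± 0.32 (SE) in the fit with no filter, Cspg4 by -0.85 ± 0.25, Lmod1 by -0.36 ± 0.21 and Itga8 by -0.04 ± 0.24. Case and control signals of Cspg4 did not overlap (1.88% of all tested probe sets, with no share computed below the filter). Podocyte markers had a median of 0.04 over 5 tested genes and summed signals of 531 to 801 in case and 558 to 757 in control. Leukocyte markers had a median of -0.24 over 4 tested genes and sums of 1011 to 1370.0 and 1011 to 1588. The part of these cell types in the endothelial values was not tested.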

How the data were processed

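Kidney RNA of 9 rats was measured on 1 Affymetrix RAE230A array each (chip type per the file headers). The deposited intensities are 1 linear signal per probe set, already scaled by the authors, as their 2%-trimmed mean lay between 100.02 and 100.03 for all arrays. The software and its background correction were not given in the sources used here. After leaving out 57 control probe sets, log2(signal + 5.03) was computed, where 5.03 is 10% of the median signal. The 9519 probe sets above the 40th percentile were tested with limma 3.58.1 (lmFit, eBayes with a trend, 2-sided) in R 4.3.3, on the 4 case and 5 control arrays. The fit was tested on simulated data. Symbols came from the platform annotation, which names no build. Upstream and miRNA sequences are RefSeq's, assembly GRCr8. A gap of 10 minutes or more between start times in the deposited experiment files began a new fluidics run. Exact permutations used NumPy 2.4.6. Alternatives were the pseudocount, filter, scaling, trend, array weights, run, actin ratio and animals left out. Animals are separate samples, with no pairing.

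Named genes were every probe set of the markers, genes of the other lists at an unadjusted p under 0.05, all measured VEGF, angiopoietin and endoglin list genes, and the 5 genes with the closest pattern. The platelet, smooth muscle and tubule genes given as checks, and Hhex and Notch4, were named in addition, after their values were seen. Members and lists were chosen with earlier results of these data known.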

Additional observations from a re-analysis of the deposited data

Results flagged for a closer look

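In case animals, the Egfl7 signal at 1370402_at was 69.1 in animal 7, apart from the other 3 at 91.3 to 95.7. Its gap to the nearest of them was 0.835 of the group's range, just above Dixon's critical value of 0.829 for 4 samples. This was the 1 such value among 22 groups tested, and chance flags about 1 group in 20. The same animal had the lowest signal for 5 of the 9 tested marker probe sets and an actin 3'/5' log2 ratio of 1.61.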

How the results depend on the processing

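No marker probe set passed the adjusted threshold under any of the 21 alternatives (the stricter filter left out Tie1 and Flt1), the smallest adjusted p being 0.262 for Egfl7 1393427_s_at. Esam, Egfl7 1393427_s_at, Tie1, Vwf, Kdr and Pecam1 kept their sign under all of these, with Esam between -0.60 and -0.24 and Egfl7 1393427_s_at between -0.57 and -0.27. The count of marker probe sets at an unadjusted p under 0.05, 2 as reported, was 1 once the actin ratio entered the model, 1 if case animals 7 and 8 were dropped, 0 if case animal 7 and control animal 4 were dropped, and between 0 and 3 with single animals left out. It was 0 without case animal 7 or control animal 4, 1 without case animal 8 or control animal 12, and 3 without case animal 5 or with the run as a block. The share of all tested probe sets at that threshold moved too. From 6.69% in the main fit it went to 4.69% with the actin ratio and 7.67% with the run as a block. Dropping case animals 7 and 8 gave 2.99%, and dropping case animal 7 and control animal 4 gave 6.99%. With 1 animal left out it was 5.21% (case 7), 6.72% (control 4), 4.44% (case 8), 5.82% (control 12) and 11.2% (case 5). Without case animal 7 and control animal 4 the median of the 9 turned to 0.0149, Eng to 0.0149 and Egfl7 1370402_at to 0.0227. Flt1 1369087_at turned to -0.20 with the run as a block and lay between -0.13 and 0.20 with single animals left out. Correlated pairs, 0 as reported, numbered 2 with group means subtracted (a permutation of residuals that is not exact) and between 0 and 2 with single animals left out, with 2 without case animal 3 and 1 without case animal 5. Over all tested probe sets, the adjusted count of 0 became 53 without case animal 5, and the unadjusted count of 637 became 1064 without case animal 5, 423 without case animal 8 and 285 without case animals 7 and 8. The cause of these shifts was not tested. The number of arrays limits precision, and no detection calls were used, so the dim Flt1 probe sets cannot be set against background.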
